A study of Danio rerio with 27 samples.

Results

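The proteasome is the barrel-shaped protease that degrades most ubiquitin-tagged proteins in the cytosol and nucleus. Its core particle stacks rings of alpha and beta subunits, and the beta rings carry the proteolytic sites. A regulatory particle of a base, which holds an ATPase ring, and a lid, which removes ubiquitin chains, feeds substrates into the core, while separate activators can cap the core in its place and dedicated chaperones assemble the parts.

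The genes described here were chosen by a rule on the gene name. It takes every row of the expression table whose gene name begins with psma to psmg followed by a digit. Earlier results of these data were known when the members and the gene lists used below were chosen. The rule found 59 of 24101 gene identifiers, under 50 symbols. 1 of them, psmc3ip, matches by spelling but encodes a factor of meiotic recombination and no proteasome subunit, so 58 identifiers under 49 symbols are counted below as members and psmc3ip is given apart. By role they are 10 identifiers of the alpha ring, 8 of the constitutive beta subunits, 1 of an immunoproteasome beta subunit (psmb10), 11 of the base ATPases, 4 of the other base subunits, 9 of the lid, 7 of the assembly chaperones and 8 of the activators and inhibitors. All 58 were in the fit, and no filter on low values was applied beyond that of the table itself.

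RNA was sequenced from whole larvae of the zebrafish AB strain in 27 libraries, 3 in each of 9 groups, to ask which genes depend on Foxo1, ERK and p38 signaling in the cold. The start group (96hpf) was untreated and taken at 96 hpf, hours post fertilization, from 28 °C. From that age the other groups spent 12 h at 28 °C or 10 °C with 0.1% DMSO as vehicle (28C_DMSO, 10C_DMSO), 0.5 µM AS1842856, an inhibitor of Foxo1 (28C_AS, 10C_AS), 5 µM PD0325901, an inhibitor of MEK, the kinase that activates ERK (28C_PD, 10C_PD), or 50 µM SB203580, an inhibitor of p38 (28C_SB, 10C_SB). Each inhibitor was used at 1 dose and 1 time, and the labels do not state whether the replicates of a group were separate clutches, so p-values measure only the spread between these libraries, which may be technical. In whole larvae a lower level can come from fewer cells of a type or from less RNA per cell, and these cannot be told apart.

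Levels are scaled TPM, the share of transcripts after correction for their length, divided by a size factor for each library (0.940 to 1.11). The deposited values carry no read depth, so the depth behind a value is unknown, and the number of libraries limits the precision. Of 18 tissue marker symbols 17 were found, none below 13.7 scaled TPM in any library, and mitochondrial genes took 7.30% to 12.9% of the TPM. A difference is said to have risen or fallen when its adjusted p was at most 0.05 in limma over all genes (Benjamini-Hochberg), and to be called when it also reached a fold of 1.5. Log2 changes are on the log2(scaled TPM + 1) scale, which understates changes of low genes.

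Proteasome genes differed in level by role, and most levels varied by less than 1.5-fold between groups. The constitutive beta subunits were highest, with a median of 112 scaled TPM over the mean levels of 8 identifiers, from 50.1 to 154 for psmb7, which carries the trypsin-like site. The alpha ring followed with a median of 54.3 and a range from 2.06 for psma6l to 119 for psma8, whose mammalian namesake is a testis subunit. The lid had a median of 48.0, the other base subunits 36.2 and the base ATPases 29.5. Assembly chaperones had a median of 13.6 and activators and inhibitors 7.95, and psmb10, the interferon-inducible counterpart of a catalytic beta subunit, stood at 4.05.

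**Figure D1:**
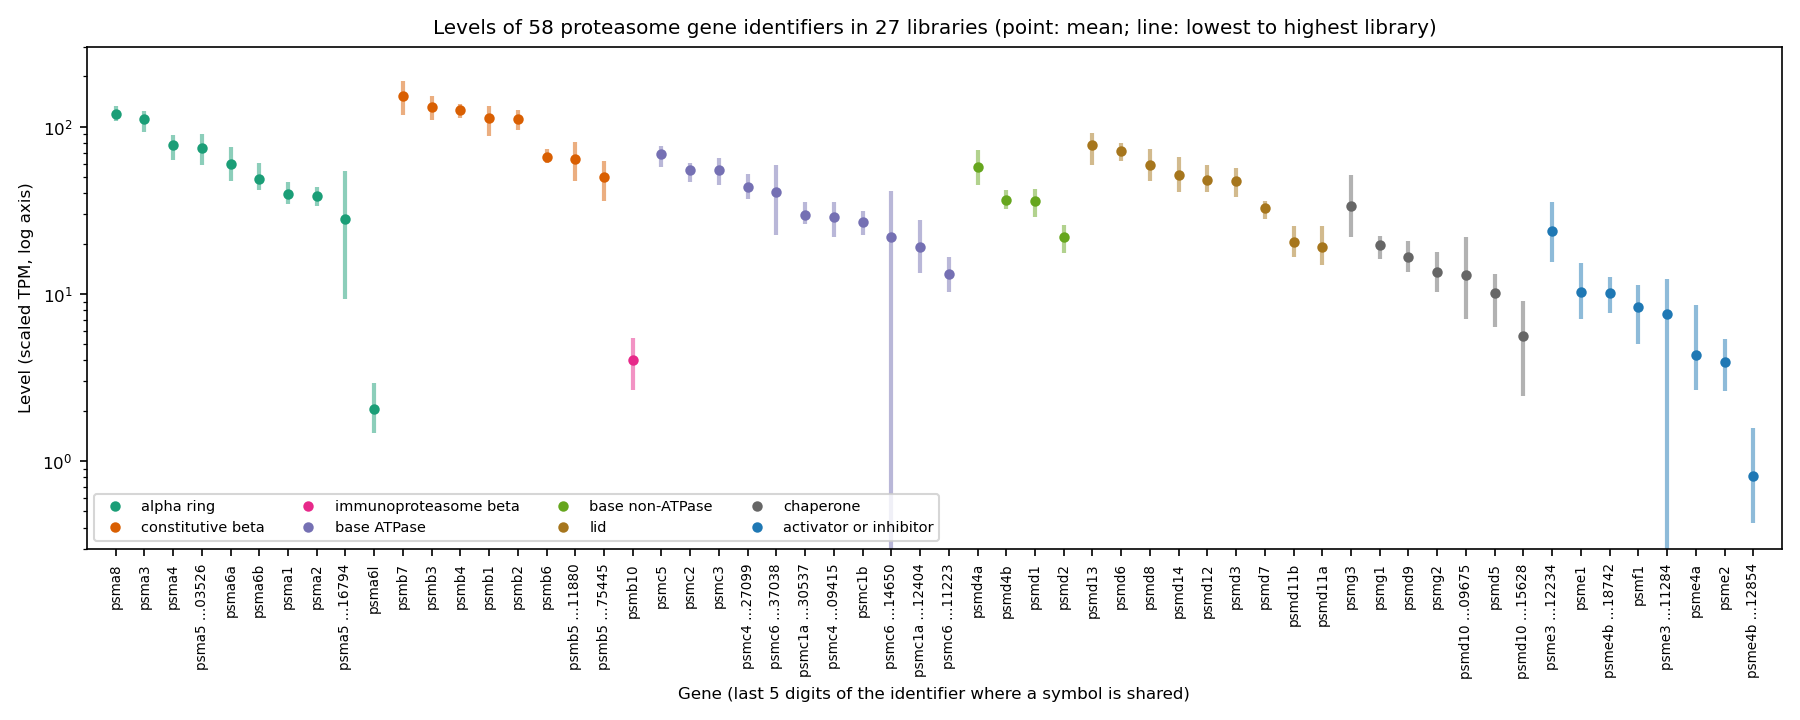
Mean level of each of the 58 identifiers in scaled TPM on a log axis, as points colored by role, with lines from the lowest to the highest of the 27 libraries; lines that reach the lower edge include a library listed at 0. Constitutive beta subunits lie at 50.1 to 154 scaled TPM and activators and inhibitors at 0.816 to 23.8.

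The ratio of the highest to the lowest group mean was under 1.5 for 43 of 58 members, with a median of 1.35. Where the mean level reached 10 scaled TPM or more, it was under 1.5 for 82.0% of 50 members and for 44.4% of 9011 genes. Within groups some of the members also moved together from library to library. For 36 members with a symbol of their own and at least 10 scaled TPM, the correlation of a member with the mean of the others, after subtracting group means, had a median of 0.34 over 27 libraries and a range of -0.13 to 0.80, against a median of 0.02 for 9011 genes with the mean of the members. The correlation was over 0.5 for 9 of the 36 members and for 495 of the 9011 genes, which include members that enter the mean. These points share their libraries and size factors, and the value is given as a description.

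Summed over the 58 members, the level was 2483 ± 80.2 scaled TPM in 96hpf (SD, n = 3, as for each sum here) and 2515 ± 83.3 in 28C_DMSO. It was 2647 ± 93.3 in 28C_AS, 2661 ± 40.5 in 28C_PD and 2311 ± 71.3 in 28C_SB. In the cold the sums were 2672 ± 94.2 in 10C_DMSO, 2625 ± 38.5 in 10C_AS, 2638 ± 42.3 in 10C_PD and 2676 ± 33.9 in 10C_SB. The lowest group was thus 28C_SB, whose libraries (2230 to 2366) lay below every other library, the next being one of 96hpf at 2417. The 4 cold groups overlapped one another.

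**Figure D2:**
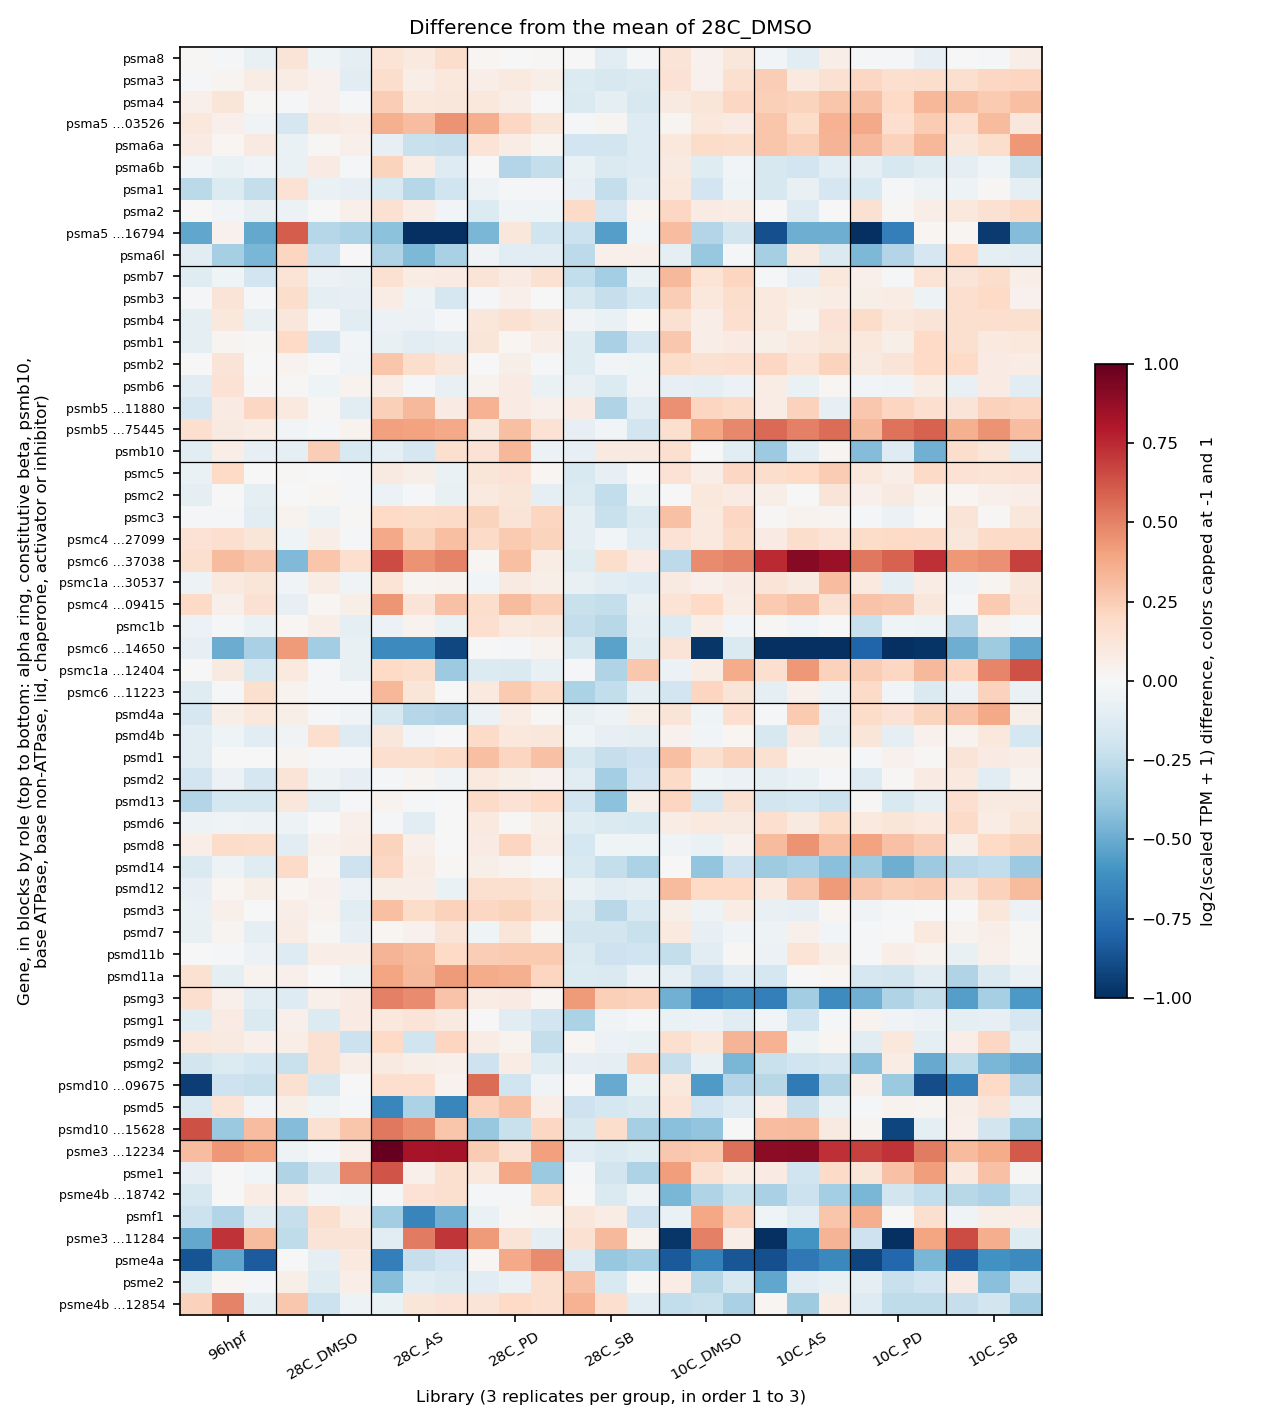
Difference of log2(scaled TPM + 1) from the mean of 28C_DMSO for 58 identifiers (rows, in blocks by role) in 27 libraries (columns, 3 per group), with colors capped at -1 and 1. Most rows stay pale, while psmg3 and psme4a are lower in the cold groups and psme3 ENSDARG00000012234 is higher in both AS1842856 groups. Single identifiers of psmc6 and psma5, and psme3 ENSDARG00000111284, vary widely between libraries.

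In the cold with vehicle (10C_DMSO against 28C_DMSO), the clearest changes among proteasome genes were decreases of an assembly chaperone and of an activator. Of 58 members 2 were called, both lower, while 15.8% of all genes were called. A further 12 passed the test under a fold of 1.5, which gave 11 that rose, against 21.0% of all genes, and 3 that fell, against 18.9%. The median log2 change was 0.06 over the members and -0.0047 over all genes. Markers of other cell types moved in the same contrast. Of 13 leukocyte identifiers ikzf1 (-0.90) and spi1b (-0.66) were called lower and no other passed the test, while the summed leukocyte level was 248 to 318 scaled TPM in 10C_DMSO and 279 to 308 in 28C_DMSO. Of 22 tissue marker identifiers 6 were higher and 5 lower past the test, with the pancreatic enzymes prss1 (-0.95) and cpa5 (-0.68) called lower and the keratin krt4 ENSDARG00000017624 (0.60) called higher. The part of these shifts in the proteasome results was not tested.

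Among the chaperones, psmg3, which helps assemble the alpha ring, was at 32.6, 37.1 and 37.9 scaled TPM in 28C_DMSO and at 25.4, 21.9 and 22.6 in 10C_DMSO. The groups did not overlap, and the level in 96hpf was 40.3, 37.0 and 33.1. The log2 change in the cold was -0.60 (SE 0.099, adjusted p = 5.0e-05 in limma). Its fold fell under 1.5 when replicate 2 or 3 of either vehicle group was left out (log2 changes of -0.56 to -0.58), and it kept an adjusted p of at most 0.0049 under every alternative tried. Of the other 6 chaperone identifiers none passed the test.

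Among the activators, psme4a, a copy of the large single-chain activator of the core, was at 5.93, 5.49 and 6.44 scaled TPM in 28C_DMSO and at 2.88, 3.34 and 2.83 in 10C_DMSO. In 96hpf it was at 2.82, 3.83 and 2.89, a range that overlapped the cold group and lay below all of 28C_DMSO. The log2 change in the cold was -0.79 (SE 0.14, adjusted p = 0.00015), and the call held under every alternative. Its paralog psme4b (ENSDARG00000018742) fell by 0.33 on the log2 scale (adjusted p = 0.0036) from 11.7, 10.8 and 10.7 to 7.79, 8.78 and 9.31. The nuclear activator psme3 (ENSDARG00000012234) rose, from 16.6, 16.9 and 18.1 to 20.9, 20.9 and 25.6, a log2 change of 0.36 (adjusted p = 0.0025). Its second identifier had a log2 change of -0.13 with an SE of 0.71, and the sum of both had 0.26 (adjusted p = 0.055).

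In the core and regulatory particle 10 of 43 identifiers rose, each by less than 1.5-fold, and none fell, against 21.0% and 18.9% of all genes. This set leaves out the chaperones and activators, which held the members that fell. Among the constitutive beta subunits 5 of 8 identifiers rose and none fell, and both identifiers of psmb5 are among the 5. The gene psmb5 carries the chymotrypsin-like site, and its identifier ENSDARG00000075445 led the rises (40.5, 40.7 and 42.3 against 46.0, 54.3 and 57.8 scaled TPM, log2 change 0.34, adjusted p = 0.00096). In the base psmd1, a scaffold subunit, rose from 34.8, 33.7 and 33.9 to 42.2, 38.3 and 40.1 (log2 change 0.23, adjusted p = 0.00035), and the ATPase psmc3 rose by 0.20 (adjusted p = 0.0031). In the lid psmd12 rose by 0.24 (adjusted p = 0.0057), and in the alpha ring psma4 rose by 0.14 (adjusted p = 0.019), each the member of its class with the lowest p. The test of psma4 was lost without replicate 1 or 3 of 28C_DMSO or replicate 3 of 10C_DMSO (0.11 to 0.13). The immunoproteasome subunit psmb10 had a log2 change of 0.02 (95% interval -0.26 to 0.30).

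The direction of these small shifts depended on the scaling. The counts of 11 that rose and 3 that fell became 6 and 6 with TPM as deposited and 1 and 15 after quantile normalization, where the median of the members was -0.12, and psmb2, psmb3, psmc3, psmc4 and psma4 changed sign. The decreases of psmg3 and psme4a passed the test under each scaling.

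Both vehicle groups were also compared with the start of the exposure, and both comparisons use the 96hpf libraries. The 96hpf larvae were untreated, so time, development and 0.1% DMSO cannot be told apart in them. After 12 h at 28 °C 1 of 58 members was called (2.75% of all genes), the increase of psme4a by 0.74 on the log2 scale (adjusted p = 0.0014), and 1 rose and 2 fell at any fold (4.65% and 5.41% of all genes). The psme3 identifier ENSDARG00000012234 fell by 0.38 (adjusted p = 0.0070) and psmc4 ENSDARG00000027099 fell by 0.15 (adjusted p = 0.036). After 12 h at 10 °C 1 of 58 was called (12.4% of all genes), psmg3 with -0.63 (adjusted p = 3.4e-05), and 9 rose and 3 fell (17.9% and 15.7% of all genes), among the former the inhibitor psmf1 by 0.39 (adjusted p = 0.025). The fold of psmg3 fell under 1.5 without replicate 1 of 96hpf (log2 change -0.57). The test of psmf1 was lost without replicate 1 or 2 of 96hpf or replicate 2 or 3 of 10C_DMSO (0.29 to 0.38), and that of psmc4 at 28 °C without any 1 library other than replicate 2 of 28C_DMSO (-0.13 to -0.16). The log2 change of psme4a from 96hpf to 10C_DMSO was -0.05 (95% interval -0.35 to 0.25), and that of psmg3 from 96hpf to 28C_DMSO was -0.03 (-0.24 to 0.17). With TPM as deposited the counts at 10 °C were 1 that rose and 10 that fell. That setting moved the median of all genes by -0.14 in this comparison.

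**Figure D3:**
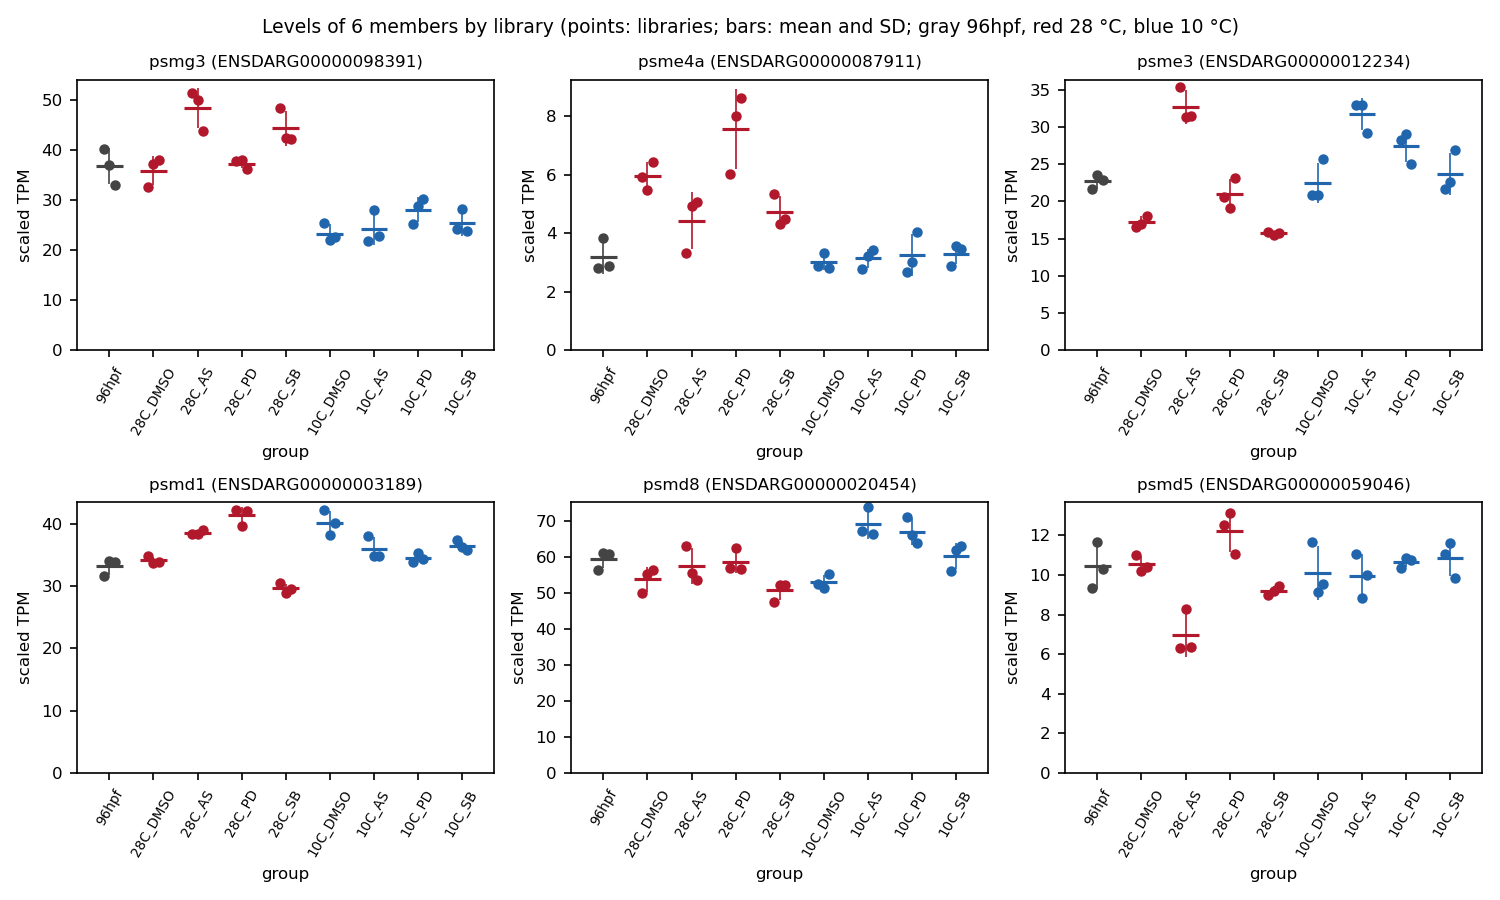
Levels of 6 members in scaled TPM by group, with points for the 3 libraries and bars for the mean and SD (gray 96hpf, red 28 °C, blue 10 °C; axes start at 0). The 12 libraries at 10 °C lie at 21.9 to 30.1 for psmg3, below all 12 at 28 °C, and psme3 is highest in the 2 AS1842856 groups.

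The same temperature contrast was made in larvae given each inhibitor, with libraries of its own in each case. In AS1842856 2 of 58 members were called (22.4% of all genes), both lower, and 10 rose and 12 fell (25.2% and 24.6%). In PD0325901 1 was called lower (17.5% of all genes), and 8 rose and 12 fell (23.3% and 20.9%). In SB203580 1 was called lower (16.2% of all genes), and 29 rose and 4 fell (21.9% and 19.2%).

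Both genes called in vehicle fell in all 4 contrasts. The log2 changes of psmg3 were -0.60 in vehicle, -0.97 in AS1842856, -0.40 in PD0325901 and -0.78 in SB203580. Those of psme4a were -0.79, -0.38, -1.01 and -0.41 in the same order. The change of psme4a in AS1842856 no longer passed the test when replicate 2 or 3 of 28C_AS or replicate 1 or 2 of 10C_AS was left out (log2 changes of -0.31, -0.29, -0.31 and -0.40), and in SB203580 it did not when replicate 1 of 28C_SB or of 10C_SB was left out (-0.33 and -0.34).

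No member rose in all 4 contrasts. Rises in 3 of them were found for psme3 ENSDARG00000012234, psma6a, psmd8, psmb2, psma4, psmd12 and psmb5 ENSDARG00000075445, and psme4b ENSDARG00000018742 fell in vehicle, AS1842856 and PD0325901. A group of 6 identifiers passed the test in opposite directions in different contrasts, namely psmd1, psmc3, psmc4, psmd3, psmd11b and psmd13, and 15 passed in none. The shares of all genes with such patterns over the 4 contrasts were not counted, so whether these counts are unusual is not known. In SB203580 the largest rise of the core was that of psmb5 ENSDARG00000075445, with a log2 change of 0.47. Summed over both identifiers psmb5 had 0.38. The next highest identifier of the core was psma4, from 63.7, 65.9 and 63.1 to 87.1, 84.9 and 87.1 scaled TPM (log2 change 0.42, adjusted p = 1.9e-07). The 28 °C group of SB203580 is the one with the lowest summed level.

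**Figure D4:**
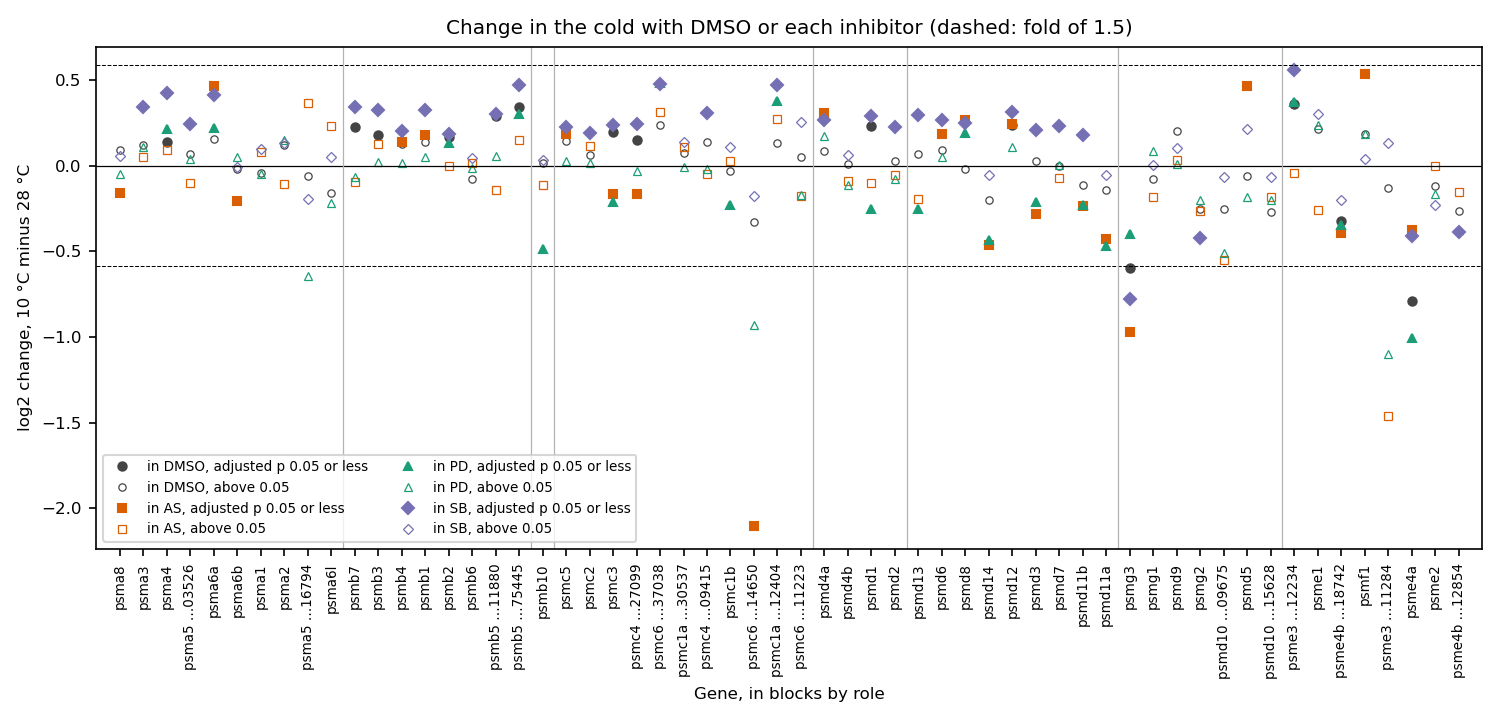
Log2 change between 10 °C and 28 °C of each of 58 identifiers, in blocks by role, with vehicle (circles), AS1842856 (squares), PD0325901 (triangles) and SB203580 (diamonds); filled symbols have an adjusted p of at most 0.05 and dashed lines mark a fold of 1.5. The points of psmg3 and psme4a are filled and below 0 in all 4 contrasts, and most SB203580 points of the core and lid are above 0.

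These splits also moved with the scaling. In SB203580 29 that rose and 4 that fell became 5 and 9 after quantile normalization and 23 and 5 with TPM as deposited. In PD0325901 8 and 12 became 0 and 30 with TPM as deposited, a setting that moved the median of all genes by -0.14, and 1 and 31 after quantile normalization.

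With AS1842856 at 28 °C the activator psme3 rose, an inhibitor fell and assembly chaperones moved both ways. Subunits of the lid and constitutive beta subunits that passed the test rose by smaller amounts, while those of the base and alpha ring moved both ways. Of 58 members 2 were called (12.2% of all genes), 1 higher and 1 lower. The higher is psme3 ENSDARG00000012234 and the lower an identifier of psma5, described below with its sum. At any fold 15 rose and 6 fell, against 17.6% and 16.7% of all genes. The median log2 change was 0.07 over the members and -0.0094 over all genes.

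The largest increase was that of psme3 (ENSDARG00000012234), from 16.6, 16.9 and 18.1 scaled TPM in 28C_DMSO to 35.3, 31.2 and 31.5 in 28C_AS. The groups did not overlap, and the log2 change of 0.89 (SE 0.088, adjusted p = 8.5e-08) was called under every alternative. Among the chaperones psmd5, which assists assembly of the base, fell from 11.0, 10.2 and 10.4 to 6.33, 8.28 and 6.34 (log2 change -0.54, adjusted p = 0.00028), and psmg3 rose from 32.6, 37.1 and 37.9 to 51.3, 50.0 and 43.8 (0.42, adjusted p = 0.0020). The inhibitor psmf1 fell by 0.49 on the log2 scale (adjusted p = 0.0049).

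In the lid both copies of psmd11 rose, psmd11a by 0.38 (adjusted p = 0.00017) and psmd11b by 0.28 (adjusted p = 0.0018). Both identifiers of the ATPase psmc4 rose as well, by 0.30 (adjusted p = 1.4e-05) and 0.29 (adjusted p = 0.0074). Among the constitutive beta subunits, in the fit with TPM summed per symbol, psmb5 rose by 0.30 (adjusted p = 0.00027 in limma). In that fit psmb2 rose by 0.19 (adjusted p = 0.0032), and no other symbol of the class passed the test. In the alpha ring psma6a fell by 0.18 (adjusted p = 0.035) while its paralog psma6b had a log2 change of 0.06 (95% interval -0.11 to 0.22). In the fit with TPM summed per symbol, psma1 of the alpha ring had -0.21 (adjusted p = 0.021 in limma) and the base subunit psmd4a had -0.25 (adjusted p = 0.034). There psma6l of the alpha ring had -0.36 (adjusted p = 0.047) and the activator psme4a had -0.37 (adjusted p = 0.049), both close to the threshold. The counts of members given above are from the fit per identifier. Each of these genes has a single identifier, so its own level is not a sum. The test of psma6a was lost without replicate 2 or 3 of either group (-0.15 to -0.17), and that of psmc4 ENSDARG00000109415 without replicate 1 of 28C_AS (0.21). The gene psmc3ip, outside the proteasome, was called higher, from 2.48, 2.36 and 3.00 to 5.26, 4.60 and 4.85 scaled TPM (0.71, adjusted p = 0.0021).

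Some leukocyte markers were lower in the same libraries. Of 13 identifiers 4 were lower and none higher past the test, and both identifiers of the neutrophil lysozyme lyz were called. The sum over 13 identifiers was 132 to 164 scaled TPM in 28C_AS and 279 to 308 in 28C_DMSO. In this sum, here and in the other contrasts, lyz weighs most. Its identifiers reached 99.7 and 172 scaled TPM over the 27 libraries, and the next highest identifier, that of coro1a, reached 13.6. The pan-leukocyte marker ptprc stayed above 0 in every library, at 1.77 to 3.29, while 1 identifier of the macrophage marker mpeg1.1 was listed at 0 in 7 of 27 libraries. Of 22 identifiers of the tissue markers 12 were lower and 1 higher past the test. The part of these shifts in the proteasome results was not tested.

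With AS1842856 at 10 °C 2 of 58 members were called (0.925% of all genes), 1 higher and 1 lower, and both are identifiers of psmc6, described below with their sum. At any fold 3 rose and 1 fell, against 1.90% and 1.74% of all genes. The psme3 identifier ENSDARG00000012234 rose again, from 20.9, 20.9 and 25.6 to 32.9, 33.0 and 29.2 (log2 change 0.48, adjusted p = 0.0041), and the lid subunit psmd8 rose from 52.4, 51.3 and 55.3 to 67.2, 73.9 and 66.4 (0.38, adjusted p = 0.0039). Neither overlapped with its vehicle group. The summed level of psme3 over both identifiers had a log2 change of 0.30 (adjusted p = 0.12) at 10 °C and 0.78 (adjusted p = 4.2e-06) at 28 °C.

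The effect of AS1842856 differed between the temperatures for 11 of 58 members, 3 with a higher and 8 with a lower effect at 10 °C, none past a fold of 1.5 (10.8% of all genes called, 10.4% and 11.0% past the test in each direction). The difference was -0.36 for psmc3 (adjusted p = 0.00065), -0.33 for psmd1 (adjusted p = 0.00067) and -0.32 for psmc4 ENSDARG00000027099 (adjusted p = 0.00086). It was 0.52 for psmd5 (adjusted p = 0.012), whose levels in the cold were 11.7, 9.12 and 9.53 with vehicle and 11.1, 8.85 and 10.0 with the inhibitor. The ratio of psma6a to psma6b ran from 0.92 ± 0.077 in 28C_AS to 1.46 ± 0.0059 in 10C_AS (SD, n = 3), with 1.08 ± 0.054 in 28C_DMSO and 1.23 ± 0.12 in 10C_DMSO.

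With PD0325901 no member was called at either temperature, while 1.49% of all genes were called at 28 °C and 0.382% at 10 °C. At 28 °C 6 rose and none fell in limma, against 2.64% and 4.13% of all genes, and 13 had an unadjusted p under 0.05 (19.2% of all genes). In the same contrast 7 of 22 tissue marker identifiers were lower past the test and none higher, namely krt4 (-0.31 and -0.41), krt5 (-0.51), hbae1.1 (-0.44), hbae3 (-0.44), prss1 (-0.34) and tfa (-0.33), as was 1 of 13 leukocyte identifiers, lcp1 (-0.32). The summed leukocyte level was 222 to 248 scaled TPM against 279 to 308, and the part of these shifts was not tested. The 6 belong to the regulatory particle, namely psmd11a (0.31), psmd1 (0.27), psmd11b (0.26), psmc4 ENSDARG00000027099 (0.23), psmd3 (0.20) and psmc3 (0.19, adjusted p = 0.021, the values in parentheses being log2 changes). Without replicate 3 of 28C_DMSO psmd3 had 0.15, without replicate 2 psmc3 had 0.17 and without replicate 1 psmd11b had 0.19, each then past the threshold no longer, and leaving out single 28C_PD libraries ended the same 3 (0.17 to 0.26). With TPM as deposited 29 members rose and none fell, and this setting moved the median of all genes by 0.12, whereas after quantile normalization the count past the test was 13. At 10 °C psmd8 rose by 0.33 (adjusted p = 0.018), and psmd1 and psmc3 fell by 0.21 and 0.22 (adjusted p = 0.022 and 0.034), against 0.274% of all genes that rose and 0.568% that fell, and 16 members had an unadjusted p under 0.05 (12.7% of all genes). The highest and lowest log2 changes at 10 °C were those of psmc6 ENSDARG00000037038 (0.38, adjusted p = 0.35) and psme3 ENSDARG00000111284 (-0.81, adjusted p = 0.69), and neither passed the test.

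The subunits psmd1 and psmc3 thus went in opposite directions with PD0325901 at the 2 temperatures. In 28C_PD psmd1 was at 42.3, 39.7 and 42.1 scaled TPM, above the 33.7 to 34.8 of its vehicle group, and in 10C_PD it was at 33.9, 35.3 and 34.4, below the 38.3 to 42.2 of its own. For psmc3 the levels were 61.8, 57.9 and 61.3 against 54.1, 50.9 and 53.2 at 28 °C, and 52.0, 50.6 and 53.0 against 64.7, 56.4 and 60.9 at 10 °C. The difference between the effects was -0.48 for psmd1 (adjusted p = 6.8e-05) and -0.41 for psmc3 (adjusted p = 0.0011), the only members of 58 past the test, and none was called (1.62% of all genes, with 2.27% and 1.88% past the test in each direction). Both differences passed the test under every alternative, whereas at 10 °C alone the changes of psmd1 and psmc3 lost it when replicate 1 or 3 of 10C_DMSO or replicate 1 or 3 of 10C_PD was left out (log2 changes of -0.18 to -0.21 and -0.17 to -0.24), and psmc3 also without replicate 2 of 10C_PD (-0.20). The rise of psmd8 at 10 °C was lost without replicate 1 or 2 of either group (0.29 to 0.35). All inhibitors share the vehicle libraries. At 10 °C psmd1 and psmc3 had log2 changes of -0.16 and -0.17 with AS1842856 and -0.13 and -0.11 with SB203580, none past the test. At 28 °C both rose with AS1842856 (0.18 and 0.20), as did every member that rose with PD0325901. With SB203580 they had -0.20 and -0.15 there, not past the test. These values for AS1842856 and SB203580 are from the fit with TPM summed per symbol, in which psmd1 and psmc3 each keep their single identifier.

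With SB203580 no member was called or passed the test at 28 °C or 10 °C in limma (0.0207% of all genes called at each, and 0.0456% and 0.0788% past the test). At 28 °C 50 of 58 log2 changes were below 0 with a median of -0.11, against 50.8% below 0 and a median of -0.0029 over all genes, and 18 members had an unadjusted p under 0.05, of which 17 were lower, against 8.61% of all genes, with 4.82% lower. The lowest p was that of psmd1, at 30.4, 28.9 and 29.5 against 34.8, 33.7 and 33.9 scaled TPM (log2 change -0.20, 95% interval -0.29 to -0.10, adjusted p = 0.11). In 22 of 58 members every 28C_SB library lay below every 28C_DMSO library, as in 7.07% of all genes. The extremes were psmg3 with 0.30 (adjusted p = 0.32) and psme4a with -0.28 (adjusted p = 0.61). At 10 °C the median was -0.0030, the extremes were psme3 ENSDARG00000111284 with 0.43 and psma5 ENSDARG00000116794 with -0.40, and 5 members had an unadjusted p under 0.05 (8.68% of all genes). The difference between the temperatures was above 0 for 50 of 58 members and for 50.9% of all genes, with a median of 0.14 over the members, and none passed the test (0.0290% of all genes called and 0.0373% past the test), with 8 members at an unadjusted p under 0.05 (8.10% of all genes).

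Several calls fell on symbols that the table lists under more than 1 gene identifier. The 8 such symbols are psma5, psmb5, psmc1a, psmc4, psmc6, psmd10, psme3 and psme4b, with 17 identifiers in all. Reads shared by near-identical copies may be divided between them by the authors' quantification, so the value of a single identifier is uncertain, and whether these copies are near-identical was not tested. Summing the TPM of a symbol was chosen after the values were seen.

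For the ATPase psmc6 the identifier ENSDARG00000114650 was at 33.4, 15.1 and 27.5 scaled TPM in 10C_DMSO and at 10.8, 0 and 6.29 in 10C_AS, a log2 change of -2.50 (SE 0.52, adjusted p = 0.010). ENSDARG00000037038 was at 25.5, 43.0 and 43.7 against 52.3, 58.8 and 56.8, a log2 change of 0.61 (adjusted p = 0.050). The third, ENSDARG00000111223, was at 11.2, 15.2 and 14.2 against 12.1, 13.4 and 12.5. Summed, psmc6 was at 70.0, 73.4 and 85.5 against 75.4, 72.3 and 75.8, with a log2 change of -0.03 (SE 0.066, adjusted p = 0.86), so neither call of an identifier stood for the symbol. The lower call was lost without replicate 1 of 10C_DMSO (log2 change -2.28, adjusted p = 0.066), and the higher one without that library (0.36) or without any 1 of the 10C_AS libraries (0.57 to 0.65). The call of ENSDARG00000114650 in the cold with AS1842856 (-2.10, adjusted p = 0.0020) likewise came to -0.06 (adjusted p = 0.49) for the sum.

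For the alpha subunit psma5 the identifier ENSDARG00000116794 was at 54.5, 28.9 and 28.2 scaled TPM in 28C_DMSO and at 26.5, 14.6 and 13.6 in 28C_AS, a log2 change of -0.99 (adjusted p = 0.040). ENSDARG00000003526 was at 58.7, 70.5 and 69.8 against 84.8, 82.0 and 90.5 (0.37, adjusted p = 0.00066). The sum was 113, 99.5 and 98.0 against 111, 96.8 and 104, a log2 change of 0.01 (SE 0.079, adjusted p = 0.94). The lower call was lost without replicate 1 of 28C_DMSO (-0.68) and without replicate 2 or 3 of 28C_AS (-0.87 and -0.82). It also missed the threshold with the replicate block (-0.99, adjusted p = 0.051), with library weights (-0.87, adjusted p = 0.051) and in a fit of both groups alone (-0.99, adjusted p = 0.079). In replicate 1 of 28C_DMSO the shares of psmc6 ENSDARG00000114650 (53.6% of the symbol) and psma5 ENSDARG00000116794 (48.1%) were the highest of all 27 libraries, and that library also had the lowest mitochondrial share (7.30%). The part of that library in these calls beyond the values given was not tested.

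**Figure D5:**
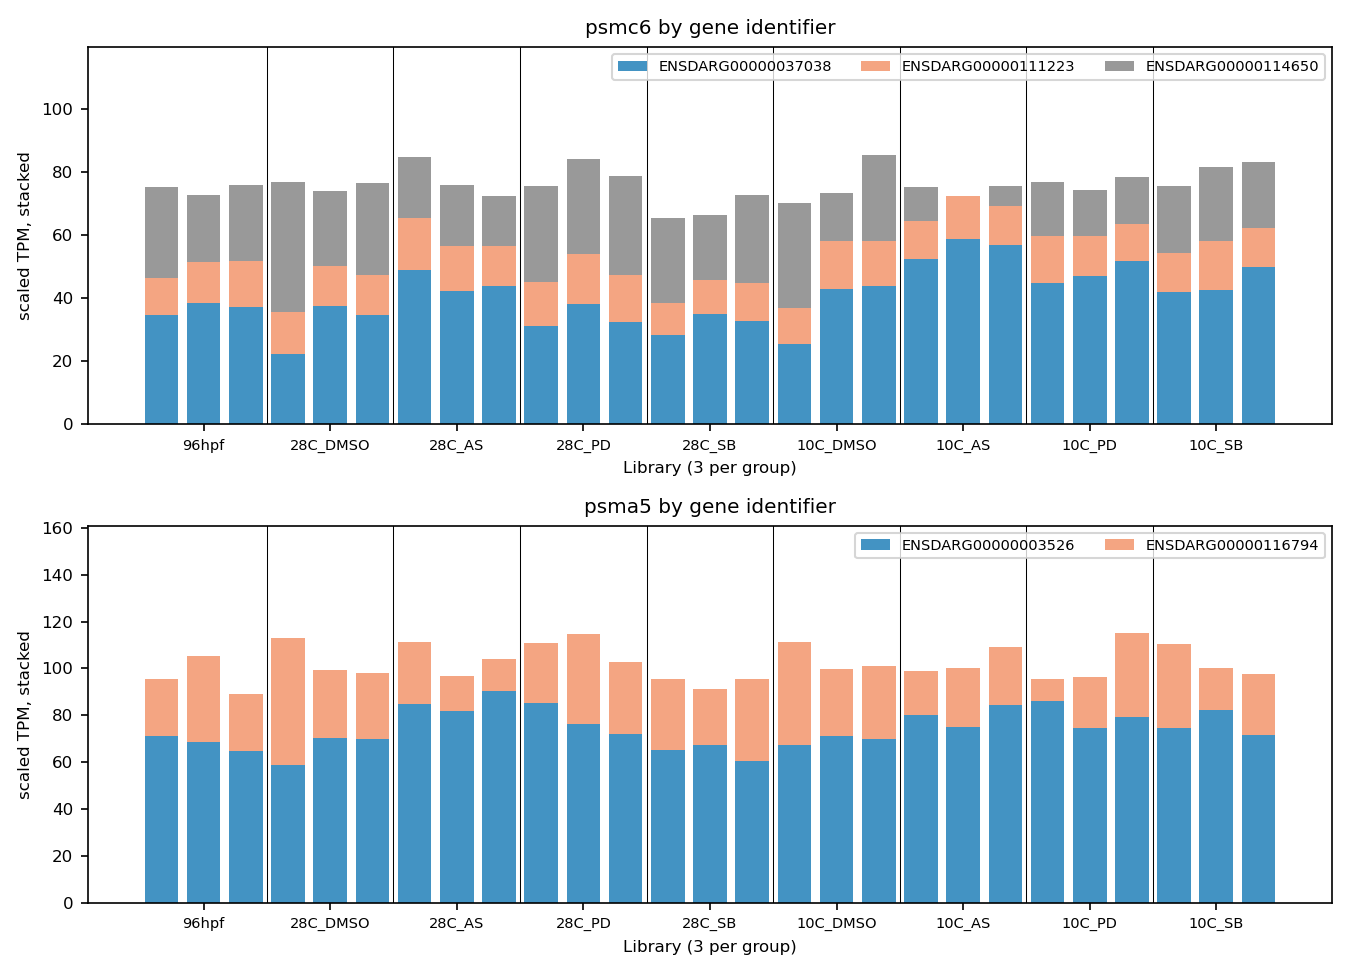
Scaled TPM of the identifiers of psmc6 (top) and psma5 (bottom), stacked in each of 27 libraries, 3 per group. The gray part of psmc6 (ENSDARG00000114650) shrinks to 10.8, 0 and 6.29 in 10C_AS while the stack stays at 72.3 to 75.8.

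For the symbols split by letter the copies were compared with the TPM of each symbol summed over its identifiers. Of these symbols psme4b and psmc1a have more than 1 identifier, and whether reads are divided between the lettered copies was not tested. The ratio of psme4a to psme4b was 0.27 ± 0.036 in 96hpf, 0.50 ± 0.054 in 28C_DMSO, 0.60 ± 0.083 in 28C_PD and 0.33 ± 0.036 in 10C_DMSO (SD, n = 3). It was 0.34 ± 0.051 in 28C_AS and 0.41 ± 0.021 in 28C_SB. In the cold with inhibitors it was 0.33 ± 0.035 in 10C_AS, 0.35 ± 0.065 in 10C_PD and 0.35 ± 0.038 in 10C_SB. That of psmc1a to psmc1b lay between 1.5 in 28C_PD and 2.07 in 10C_SB, that of psmd4a to psmd4b between 1.25 in 28C_AS and 1.82 in 10C_SB, and that of psmd11a to psmd11b between 0.82 in 10C_PD and 1.01 in 28C_AS (group means).

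Outside the proteasome itself, the lists of ubiquitin genes and of factors that control proteasome genes included the largest increases of the pathway in the cold. Of 6 identifiers of ubiquitin genes 2 were called higher with vehicle, both of the polyubiquitin gene ubb, whose identifier ENSDARG00000093313 went from 253, 246 and 265 to 803, 720 and 793 scaled TPM (log2 change 1.60, adjusted p = 1.3e-12). Of 8 identifiers of regulators 2 were called higher, with 15.8% of all genes called in either direction, and 3 rose and 1 fell at any fold. The gene nfe2l1a, whose mammalian counterpart raises proteasome genes when proteasome activity falls, went from 2.55, 2.84 and 2.22 to 7.76, 8.33 and 10.4 (1.47, adjusted p = 1.2e-08). The other, nfe2l2b, a paralog of nfe2l2a, went from 2.70, 2.79 and 2.12 to 8.05, 6.66 and 8.11 (1.28, adjusted p = 6.6e-08). The 2 identifiers of the paralog nfe2l1b had log2 changes of 0.31 and -0.083 with vehicle. Those of nfe2l2a and nfe2l3 were 0.22 and 0.081, and of these values only 0.31 passed the test. With each inhibitor both identifiers of ubb, nfe2l1a and nfe2l2b were called higher in the cold as well. In the same list ngly1, a deglycosylase that in mammals is needed to activate the product of NFE2L1, fell by 0.39 with vehicle (adjusted p = 8.7e-05) and also with each inhibitor (-0.49, -0.34 and -0.47 with AS1842856, PD0325901 and SB203580).

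The other lists are given against the 15.8% of all genes called in the cold with vehicle, and the 21.0% and 18.9% that rose and fell at any fold. None of 5 shuttle factor identifiers, none of 8 of p97 and its cofactors and none of 3 of subunits named otherwise was called, with 2, 3 and 0 past the test. The 1 identifier of a ubiquitin-activating enzyme and the 4 of AN1 proteins of the proteotoxic stress response held no call either, and of the latter zfand6 rose by 0.32 and zfand5a fell by 0.43. Of 7 identifiers of proteasome-bound enzymes and assembly factors 1 was called, the ubiquitin ligase ube3c with -0.59 (adjusted p = 9.3e-06). In that list txnl1 and uchl5 ENSDARG00000103404 rose by 0.21 and 0.23, while uchl5 ENSDARG00000110434 had 0.070 (adjusted p = 0.79 in limma). The row named PSMD2 (1 of many), which the rule misses through its capitals, had a log2 change of 0.13 (adjusted p = 0.19) in the cold with vehicle and fell by 0.31 with AS1842856 at 10 °C (adjusted p = 0.024). Its inhibitor effects differed between the temperatures by -0.34 for AS1842856 (adjusted p = 0.025) and -0.39 for PD0325901 (adjusted p = 0.039). Whether reads of psmd2 are divided between this row and that of psmd2 was not tested. With AS1842856 at 28 °C the p97 cofactor ufd1l (-0.95, adjusted p = 4.5e-06), the shuttle factor rad23ab (-0.61, adjusted p = 1.7e-05) and ubb ENSDARG00000112953 (-0.96, adjusted p = 0.00016) were called lower, while ubb ENSDARG00000093313 fell by 0.34. Of 12 identifiers of interferon and MHC class I genes 2 were called lower there, where 12.2% of all genes were called in either direction. They are the antigen-presenting mhc1zba (-0.67) and the peptide-loading factor tapbp.1 (-0.66). In the cold with vehicle none of the 12 was called. Past the test there irf1b rose by 0.58 (adjusted p = 0.020 in limma), while mhc1zba, b2ml and stat1a fell, with log2 changes of -0.37, -0.22 and -0.20.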

How the data were processed

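The authors quantified reads with Salmon 0.13.1 on Ensembl release 101 zebrafish cDNA, summarized them per gene with tximport and deposited TPM of the genes that reached a TPM of 1 in every replicate of some group. Reads that fit several transcripts are divided by estimate, and TPM keeps no read depth. TPM were divided by median-of-ratios size factors, and log2(scaled TPM + 1) was fitted with limma 3.58.1 in R 4.3.3 (trended prior, two-sided moderated test, group means, 27 libraries, 18 residual degrees of freedom) for 15 comparisons, with Benjamini-Hochberg adjustment over 24101 genes in each. Calls needed an adjusted p of at most 0.05 and a fold of 1.5. The fit was tested on simulated data. The members and lists were chosen with earlier results of these data known. Named were called members, the member of each role class with the lowest p in the cold, the extremes of each comparison, paralog pairs, and up to 3 called genes of each list; other members that passed a test (such as psmd5, psmd8 and psmf1) were chosen after their values were seen. Of 59 identifiers, 50 were in the name table used. Tables were made with Python 3.11.15 and pandas 2.3.3. Alternatives were TPM as deposited, quantile normalization, pseudocounts of 0.1 and 0.5, a minimum mean of 5 scaled TPM in at least 1 group, library weights, a replicate block, a fit of the compared groups only and leaving out libraries. Promoter motifs and sequences were not analysed here.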

Additional observations from a re-analysis of the deposited data

Results flagged for a closer look

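The effects of AS1842856 at 10 °C and 28 °C differed by the interaction test in limma for 11 members. The log2 difference of differences, 10 °C minus 28 °C, was -0.33 for psmd1, -0.36 for psmc3, -0.32 for psmc4 (ENSDARG00000027099), -0.31 for psmd3, -0.29 for psmd11a, -0.25 for psma8, -0.32 for psmb7 and -0.40 for psme3 (ENSDARG00000012234). It was 0.52 for psmd5, 0.31 for psma6a and 0.29 for psmd8. The difference for psme3 missed the threshold without replicate 1 of 28C_DMSO or of 28C_AS, or without replicate 3 of 10C_DMSO or of 10C_AS (-0.38, -0.35, -0.31 and -0.35). Those for psma8, psmb7, psmd11a and psmd8 missed it without 2, 5, 7 and 7 of the 12 libraries, each left out alone, at -0.21, -0.27 to -0.30, -0.23 to -0.29 and 0.24 to 0.28. For PD0325901 the difference was -0.48 for psmd1 and -0.41 for psmc3, and no replicate left out ended either. Past that test were 2.27% of all genes higher and 1.88% lower. The vehicle libraries are shared between both sets of differences.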

How the results depend on the processing

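The main fit did not pair libraries by replicate number. The correlations of deviations between same-numbered libraries ran from -0.14 to 0.31 over 108 pairs with a median of 0.017, and 9 were over 0.1. A median over all groups cannot show whether certain groups were paired. The 3 pairs of 28C_DMSO with 10C_DMSO had 0.31, the highest of all, 0.14 and 0.099, of which the last was not over 0.1, and replicate 1 had the lowest mitochondrial share in both of these groups (7.30% and 8.42%). With the block that contrast had 2 members called and 16 past the test, against 14 without it. With the replicate block the members called with AS1842856 at 28 °C went from 2 to 1, and no other count moved by over 1.5 times.

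Counts of members called moved as follows. With AS1842856 at 10 °C 2 became 1 with TPM as deposited, quantile normalization, either pseudocount or library weights, and 0 in a fit of the compared groups only or with identifiers summed. With AS1842856 at 28 °C 2 became 1 with library weights or identifiers summed, and in the cold in AS1842856 2 became 1 in a fit of the compared groups or with identifiers summed. After 12 h at 10 °C 1 became 2 with either pseudocount. In the cold in PD0325901 1 became 5 on deposited TPM and 2 after quantile normalization, with a pseudocount of 0.1 or the compared groups only. In the cold in SB203580 1 became 2 with a pseudocount of 0.1, and for PD0325901 by temperature 0 became 1 with TPM as deposited.

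Counts past the test at any fold fell in a fit of the compared groups only, which has fewer samples: 14 became 7 in the cold response, 4 became 0 with AS1842856 and 3 became 0 with PD0325901 at 10 °C, 6 became 0 with PD0325901 at 28 °C, 12 became 5 after 12 h at 10 °C and 11 became 5 for AS1842856 by temperature. With TPM as deposited 3 became 1 with PD0325901 at 10 °C, 6 became 29 at 28 °C, 3 became 6 after 12 h at 28 °C and 2 became 8 for PD0325901 by temperature. With quantile normalization 3 became 1 and 6 became 13 with PD0325901 at 10 °C and 28 °C, 20 became 32 in the cold in PD0325901, 33 became 14 in the cold in SB203580 and 2 became 5 for PD0325901 by temperature. Library weights gave 1 in place of 3 with PD0325901 at 10 °C, and identifiers summed gave 1 in place of 4 with AS1842856 at 10 °C. The cause of the scaling differences was not tested.

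Log2 changes that turned sign with quantile normalization were, in the cold response, psmc3 -0.012, psmb3 -0.014, psmc4 -0.045, psmb2 -0.058 and psma4 -0.077. After 12 h at 10 °C they were psmb4 -0.073 and psmd6 -0.039, and with TPM as deposited psmb4 -0.014 and psmd6 -0.028. In the cold in AS1842856 they were psmb1 -0.039, psmc5 -0.041, psmb4 -0.047 and psmd6 -0.049. In the cold in PD0325901 they were psma6a -0.018, psmd8 -0.053, psmb2 -0.16 and psma4 -0.081, and psmb2 -0.030 with TPM as deposited. In the cold in SB203580 they were psma5 -0.0028, psmc5 -0.018, psmd3 -0.0012, psmc2 -0.031, psmb2 -0.066 and psmb4 -0.033. With identifiers summed psmc6 came to -0.030 with AS1842856 at 10 °C and -0.050 in the cold in PD0325901, and psma5 to 0.0100 with AS1842856 at 28 °C.

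With libraries left out in turn, members called ranged from 1 to 2 in the cold response, 0 to 2 with AS1842856 at 10 °C, 1 to 3 at 28 °C and 0 to 1 by temperature, 0 to 2 after 12 h at 10 °C, 1 to 2 in the cold in PD0325901 and 1 to 3 in SB203580. Members past the test ranged from 2 to 7 with AS1842856 at 10 °C and 7 to 12 by temperature, 0 to 2 with PD0325901 at 10 °C and 3 to 6 at 28 °C, and 7 to 13 after 12 h at 10 °C. The unknown read depth and 3 libraries a group limit all of these values.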
